A study of Homo sapiens with 6 samples.

Results

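The eicosanoid synthesis enzymes are the proteins that turn arachidonic acid, a membrane fatty acid, into prostaglandins, thromboxane and leukotrienes. The 10 genes described here were taken by symbol from a list chosen for this work (PLA2G4A, PTGS1, TBXAS1, HPGDS, PTGES3, ALOX5, ALOX5AP, LTC4S, LTA4H and ALOX12), and all 10 were found among the 61852 genes of the count table. Poly(A) RNA was sequenced from MEG-01, a human leukaemia cell line of megakaryoblast type. The control group (n = 3) carried the pLKO.1 control vector, and the knockdown group (n = 3) carried sh2-MELK, a short hairpin RNA against the kinase gene MELK. All 6 libraries came from the same line and carry the same batch label, the replicates are labelled biological, and a single hairpin was used. Library totals ran from 18945176 to 21711313 counts.

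Cytosolic phospholipase A2 (PLA2G4A) releases arachidonic acid from phospholipid. In the cyclooxygenase branch PTGS1 makes prostaglandin H2, which TBXAS1 turns into thromboxane A2, HPGDS into prostaglandin D2 and prostaglandin E synthases into prostaglandin E2. In the lipoxygenase branch ALOX5, helped by the membrane protein ALOX5AP, makes leukotriene A4, which LTA4H turns into leukotriene B4 and LTC4S into the cysteinyl leukotriene C4, while ALOX12 makes 12-HETE. Platelets are known for cyclooxygenase-1, thromboxane synthase and 12-lipoxygenase, and mast cells for prostaglandin D2 and leukotriene C4.

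Each deposited value looks like reads with 0, 1, 2, 10 or 100 put on top, since 57.9% of genes hold nothing but those 5 values. The reads behind each value were therefore also estimated with a model that adds such a number to each library (estimates are reads in a library of average depth, with 95% intervals), beside edgeR's test on the counts as deposited. MELK counted 219, 206 and 238 in control cells and 16, 124 and 26 after knockdown. Its estimate fell from 213.7 reads (193.3 to 236.1) to 20.6 (14.8 to 27.0), a modelled log2 fold change of -3.38 (adjusted p = 1.25e-34), while edgeR gave -1.98 ± 0.69 (SE, adjusted p = 0.104). Without knockdown replicate 2, which held the value of 124, edgeR gave -3.33 (adjusted p = 0.00286). With all 6 libraries edgeR also called MELK with no filter (adjusted p = 0.00961) and with at least 5 CPM required in 3 libraries (adjusted p = 0.0204). The cause of the difference between the analyses was not tested. Of 15 markers chosen for the labelled megakaryoblast type, 3 platelet genes (GP1BB, PF4 and PPBP) were under 1 estimated read in both groups, while ITGA2B stood at 39834 and 21110 estimated reads and GATA1 at 4723 and 3227.

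3 of the 10 genes moved clearly in both analyses. LTC4S fell by 2.07 on the log2 scale in the model, and HPGDS and PTGES3 rose by 2.26-fold and 1.98-fold. PTGS1, the most highly expressed of them, was slightly lower by edgeR only. PLA2G4A, ALOX5, ALOX5AP and ALOX12 had under 30 estimated reads in every group. In edgeR's quasi-likelihood test all 10 genes were tested, and 2 passed the Benjamini-Hochberg adjusted threshold as higher and 2 as lower, against a background of 8.12% higher and 8.43% lower among 28303 genes. With the added number modelled, 9 members were tested (ALOX12 was under the minimum mean of 30 counts) and 2 passed as higher and 1 as lower, against 25.4% higher and 25.6% lower among 17725 genes. In the model 2 of 9 called higher is near the background. In an edgeR fit of genes averaging 500 counts or more, 4 of 5 members were called, against 3877 of 5038 genes. These counts are no result about the members. The median log2 fold change was -0.11 over the 10 in edgeR, against 0.02 over all genes tested, and -0.08 over the 9 in the model, against 0.01.

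**Figure D1:**
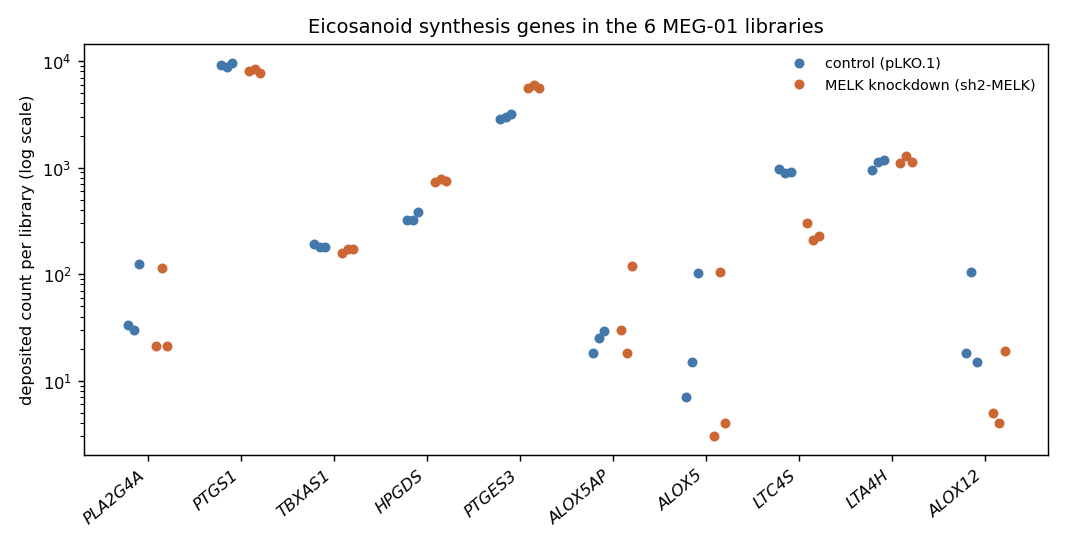
Deposited counts of the 10 eicosanoid synthesis genes in each of the 3 control (blue) and 3 knockdown (orange) libraries, on a logarithmic axis; each point is 1 library and the genes are ordered by branch. LTC4S sits between 894 and 977 in the control and between 211 and 302 in the knockdown, HPGDS and PTGES3 are higher in every knockdown library, and single values just above 100 appear in genes whose other libraries are far lower.

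PLA2G4A, which opens the pathway, had few reads. PLA2G4A (ENSG00000116711, chromosome 1, 186828953 to 186988981, forward strand, GRCh38) counted 33, 30 and 124 in control cells and 21, 114 and 21 after knockdown. The groups overlapped, and each held 1 value above 100. For those 2 values the model placed 24 and 14 reads under an added 100. The estimate was 26.3 reads (19.2 to 33.6) in the control and 17.1 (9.72 to 23.2) in the knockdown. The log2 fold change of -0.62 (-1.53 to 0.03) did not pass (adjusted p = 0.111), and edgeR, which takes the counts as they stand, did not call it either (adjusted p = 1.00).

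PTGS1 (ENSG00000095303, chromosome 9, 122370530 to 122395703, forward strand), the constitutive cyclooxygenase, was the member with the most reads. Its control libraries counted 9201, 8735 and 9658 and its knockdown libraries 8058, 8478 and 7778. All 3 knockdown libraries were below all 3 control libraries, by a small margin. Control cells averaged 458.5 ± 11.1 CPM and knockdown cells 414.1 ± 6.41 CPM (SD, n = 3 each). The log2 fold change was -0.15 ± 0.03 (SE, edgeR adjusted p = 0.00815) and -0.13 (-0.25 to -0.01) in the model, which did not pass (adjusted p = 0.0825). The edgeR call was lost without control replicate 1 (-0.14, adjusted p = 0.150), control replicate 3 (-0.11, adjusted p = 0.324), knockdown replicate 1 (-0.19, adjusted p = 0.0680) or knockdown replicate 3 (-0.18, adjusted p = 0.0699). The decrease stayed in all of them, in fits that also tested more genes (40268 to 40434 against 28303). A gene within a PTGS1 intron on the same strand, AL162424.1, shares no exon base with it.

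TBXAS1 (ENSG00000059377, chromosome 7, 139777051 to 140020325, forward strand), thromboxane A synthase, counted 190, 178 and 180 in control cells and 158, 171 and 173 after knockdown. The raw knockdown values were all lower, but the nearest values of the groups, 173 and 178, lay closer together than an added 10. Scaled for library size the groups overlapped, with knockdown replicate 3 at 9.17 CPM and control replicate 3 at 8.78 CPM. The estimates were 176.2 reads (158.3 to 195.2) and 167.1 (150.5 to 185.7). Neither edgeR (-0.09 ± 0.19, SE, adjusted p = 0.919) nor the model (-0.08, interval -0.29 to 0.14, adjusted p = 0.585) called a change, and the interval bounds a decrease at 0.29 on the log2 scale.

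HPGDS (ENSG00000163106, chromosome 4, 94298535 to 94342876, reverse strand), the haematopoietic prostaglandin D synthase, rose. Its control libraries counted 324, 324 and 384 and its knockdown libraries 727, 779 and 745. Every knockdown library lay well above every control library. The level went from 17.1 ± 1.46 to 38.4 ± 1.33 CPM (SD, n = 3 each). The log2 fold change was 1.16 ± 0.09 (SE, edgeR adjusted p = 2.88e-05) and 1.18 (1.00 to 1.40) in the model, a 2.26-fold rise from 333.6 to 755.2 estimated reads. Leaving out any 1 library gave 1.08 to 1.24 in edgeR, and the call held each time.

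PTGES3 (ENSG00000110958, chromosome 12, 56663341 to 56688408, reverse strand) encodes p23, known both as cytosolic prostaglandin E synthase and as an HSP90 co-chaperone. Its control libraries counted 2838, 3016 and 3162 and its knockdown libraries 5569, 5935 and 5624. The groups were far apart, and the libraries within each were close. The level rose from 150.0 ± 9.54 to 291.8 ± 8.16 CPM (SD, n = 3 each), and the log2 fold change was 0.96 ± 0.05 in edgeR (SE, adjusted p = 4.30e-06) and 0.98 (0.85 to 1.11) in the model. The 3 chaperone genes listed as its partners were called higher as well. Of all genes tested edgeR called 8.12% higher, and 1918 of 5038 in its fit of genes averaging 500 counts or more. The partners were few and listed with earlier results of these data known, so their count is no result about them. HSP90AB1 went from 2311 ± 170.7 to 4541 ± 44.4 CPM (SD, n = 3 each; 0.97 ± 0.05, SE, edgeR adjusted p = 3.70e-06), HSP90AA1 rose by 0.61 ± 0.13 (adjusted p = 0.0106) and the HSP90 ATPase activator AHSA1 by 0.81 ± 0.05 (adjusted p = 1.75e-05). PTGES3 has processed pseudogenes, and the 5 in the table had counts of at most 101. How the counting treated reads that match both PTGES3 and these copies is not stated, so its level is uncertain to an extent these counts do not measure.

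The other prostaglandin E synthase genes are PTGES and PTGES2. PTGES, the inducible enzyme, had too few reads to be tested and was estimated at 0.87 reads (0.06 to 2.81) in the control and 0.55 (0.05 to 2.15) in the knockdown. PTGES2 fell, from 87.9 ± 6.33 to 72.9 ± 4.74 CPM (SD, n = 3 each), with a log2 fold change in edgeR of -0.27 ± 0.07 (SE, adjusted p = 0.0284).

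LTC4S (ENSG00000213316, chromosome 5, 179793980 to 179796647, forward strand), leukotriene C4 synthase, showed the largest change of the 10. Its control libraries counted 977, 894 and 918 and its knockdown libraries 302, 211 and 226. All 3 knockdown libraries were far below all 3 control libraries, and knockdown replicate 1 was the highest of them. For its value of 302 the model placed 202 reads under an added 100, with a weight of 99.96%, which brings it to the level of the other 2. The level fell from 46.4 ± 1.53 to 12.6 ± 2.48 CPM (SD, n = 3 each), with a log2 fold change in edgeR of -1.88 ± 0.13 (SE, adjusted p = 2.17e-05). In the model it was -2.07 (-2.25 to -1.88), from 900.4 to 214.6 estimated reads. Leaving out any 1 library gave -2.09 to -1.77 in edgeR, and the call held each time.

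The enzyme and the helper protein upstream of LTC4S had few reads in both groups. ALOX5 (ENSG00000012779, chromosome 10, 45374176 to 45446119, forward strand) counted 7, 15 and 102 in control cells and 3, 105 and 4 after knockdown, which the model read as 4.18 reads (2.24 to 7.13) and 3.44 (1.62 to 6.14). In the model the values of 102 and 105 were most likely 2 and 5 reads under an added 100. ALOX5AP (ENSG00000132965, chromosome 13, 30713478 to 30764426, forward strand) counted 18, 25 and 29 in control cells and 30, 18 and 119 after knockdown, read as 20.5 (13.5 to 27.5) and 19.9 (14.6 to 26.7). The groups overlapped in both genes. The modelled log2 fold changes were -0.28 (-1.59 to 0.95, adjusted p = 0.733) for ALOX5 and -0.04 (-0.68 to 0.71, adjusted p = 0.928) for ALOX5AP. These intervals are wide, and smaller changes than their bounds were not detectable at this depth. The sign for ALOX5AP turned when control replicate 2, control replicate 3 or knockdown replicate 2 was left out, reaching 0.15 without knockdown replicate 2.

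ALOX12 (ENSG00000108839, chromosome 17, 6996065 to 7010736, forward strand), the platelet 12-lipoxygenase, counted 18, 105 and 15 in control cells and 5, 4 and 19 after knockdown. The groups overlapped. The estimates were 6.17 reads (3.61 to 13.8) and 5.58 (3.20 to 8.88), a log2 fold change of -0.15 (-1.59 to 0.88), with an adjusted p of 0.850 when genes of any mean were modelled. The antisense gene ALOX12-AS1 shares 491 exon bases with ALOX12 and had counts of 44 to 89. Without a stated strand setting, reads of this pair cannot be told apart.

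LTA4H (ENSG00000111144, chromosome 12, 96000828 to 96043520, reverse strand), leukotriene A4 hydrolase, counted 948, 1127 and 1187 in control cells and 1094, 1293 and 1117 after knockdown. The groups overlapped. Control cells averaged 54.3 ± 6.81 CPM and knockdown cells 59.7 ± 4.39 CPM (SD, n = 3 each). Neither edgeR (0.14 ± 0.10, SE, adjusted p = 0.461) nor the model (0.18, interval 0.01 to 0.33, adjusted p = 0.0788) called it. The model did call it without control replicate 2 (0.24, adjusted p = 0.0275), without control replicate 3 (0.23, adjusted p = 0.0320) and without knockdown replicate 1 (0.23, adjusted p = 0.0408). It did not without control replicate 1 (0.04, adjusted p = 0.699), knockdown replicate 2 (0.13, adjusted p = 0.269) or knockdown replicate 3 (0.18, adjusted p = 0.119). With all libraries, a model dispersion of 0.01 gave an adjusted p of 0.342, and 4 times the dispersion gave 0.383. A pair of antisense genes overlaps its exons, by 582 and 121 bases.

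**Figure D2:**
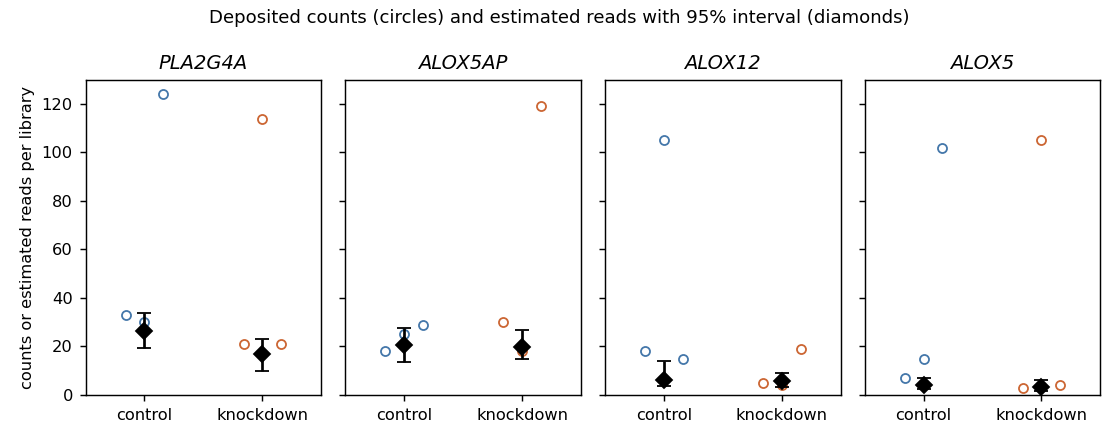
Deposited counts per library (open circles, blue for control and orange for knockdown) and the estimated reads of each group with the 95% interval (black diamonds) for the 4 members with few reads, on a linear axis. In each gene 1 or 2 libraries sit just above 100 while the estimates stay under 30 reads, and the intervals of the groups overlap.

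**Figure D3:**
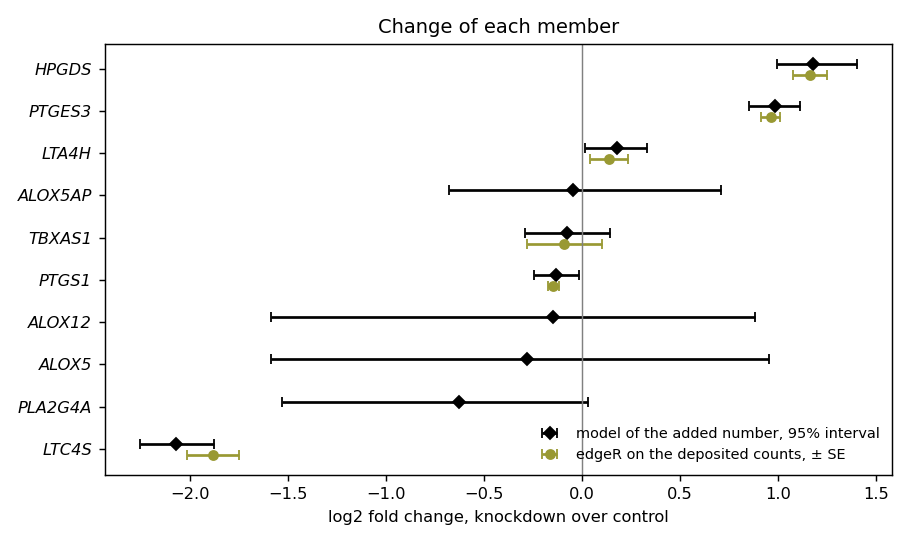
Log2 fold change of the knockdown over the control for each member, from the model of the added number (black diamonds, 95% interval) and, for the 6 members with at least 100 estimated reads, from edgeR (olive circles, ± SE). LTC4S lies near -2, HPGDS and PTGES3 lie near 1, and the intervals of ALOX5, ALOX5AP, ALOX12, PLA2G4A and TBXAS1 include 0.

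Per kilobase of exon, estimated reads in the control were highest for PTGS1 at 1555, then PTGES3 at 862.0 and LTC4S at 755.3. HPGDS at 158.0 and LTA4H at 140.5 followed, and TBXAS1 was at 28.4. ALOX5AP at 11.9, PLA2G4A at 9.15, ALOX12 at 2.36 and ALOX5 at 1.12 were the lowest. In the knockdown PTGES3 (1703) stood above PTGS1 (1420), HPGDS (357.8) stood above LTC4S (180.0), and LTA4H (158.8) came next. The lowest in the knockdown were TBXAS1 (27.0), ALOX5AP (11.6), PLA2G4A (5.93), ALOX12 (2.13) and ALOX5 (0.924). Neighbours whose intervals overlapped were HPGDS with LTA4H, ALOX5AP with PLA2G4A and ALOX12 with ALOX5 in the control, and LTC4S with LTA4H, PLA2G4A with ALOX12 and ALOX12 with ALOX5 in the knockdown. Exon length here is the union of all annotated exons. It exceeds the longest transcript unevenly, with 6200 against 2505 bases for TBXAS1, 1192 against 909 for LTC4S and 3399 against 2939 for PTGES3. The order by another length was not computed.

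The 3 genes that moved differ in base composition. The longest annotated transcript has a GC content of 71.4% for LTC4S, 40.3% for HPGDS and 42.9% for PTGES3. Over 5031 well-counted genes (mean of 500 or more), GC-rich genes tended towards lower fold changes (Spearman rho -0.39, across genes, which are not independent replicates). Once the trends with GC and transcript length were taken out per library, the edgeR values were -1.40 for LTC4S (adjusted p = 3.75e-08), 0.80 for HPGDS (adjusted p = 1.10e-06), 0.68 for PTGES3 (adjusted p = 1.81e-12) and -0.19 for PTGS1 (adjusted p = 5.43e-06). These kept their direction and call. LTA4H turned to -0.15 (adjusted p = 0.0817). The part of base composition in these changes beyond this fit was not tested.

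The promoters of these genes are shown because 2 of them rose and 1 fell, and because GATA and ETS proteins are known regulators of megakaryocyte and mast cell genes. RefSeq windows (GRCh38.p14) were found for 9 of the 10 genes. The stretches are written 5′ to 3′ on the strand of the gene and end where the annotated gene begins. Capitals mark matches, on either strand, to GATAA (the GATA core), GGGCGG (the GC box bound by Sp1), GGAAGT (an ETS site) and TGANTCA (the AP-1 and NF-E2 core).
LTC4S, chr5:179793736-179793979, forward strand: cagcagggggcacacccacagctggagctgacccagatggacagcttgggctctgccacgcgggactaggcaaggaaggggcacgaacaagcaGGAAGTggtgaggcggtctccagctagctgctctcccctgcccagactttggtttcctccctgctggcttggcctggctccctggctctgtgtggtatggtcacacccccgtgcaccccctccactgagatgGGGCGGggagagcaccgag
HPGDS, chr4:94342877-94343086, reverse strand: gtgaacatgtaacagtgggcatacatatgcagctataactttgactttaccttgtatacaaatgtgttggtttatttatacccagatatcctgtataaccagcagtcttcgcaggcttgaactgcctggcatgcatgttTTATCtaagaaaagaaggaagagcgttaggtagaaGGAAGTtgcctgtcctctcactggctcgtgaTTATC
PTGES3, chr12:56688409-56688534, reverse strand: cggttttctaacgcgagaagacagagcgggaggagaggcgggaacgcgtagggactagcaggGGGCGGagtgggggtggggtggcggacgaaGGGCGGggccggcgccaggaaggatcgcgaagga
In the 250 bases before the RefSeq start, LTC4S held 1 GC box and 1 ETS match, HPGDS held 2 GATA matches and 1 ETS match, and PTGES3 held 4 GC boxes, of which 2 lie in the stretch printed. TGANTCA was in none of the 3 windows. Of 35116 such windows of all genes, GATAA was in 20.4%, GGGCGG in 42.6%, GGAAGT in 19.5% and TGANTCA in 6.57%. PTGS1 held 1 GATA, 1 GC box and 1 ETS match before its upstream start, ALOX5AP held 1 GATA and 2 ETS matches, and ALOX12 held 1 GATA, 2 GC box and 1 ETS matches. TBXAS1 held 3 ETS matches and 1 TGANTCA match, LTA4H held 1 ETS match, and PLA2G4A held none of the motifs. The RefSeq starts used for TBXAS1 and LTA4H lie inside the annotated gene, 52213 and 7933 bases from its edge.

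The wider eicosanoid pathway was described with 68 further genes, from arachidonate handling to receptors. edgeR tested 53 of them and called 11 higher and 12 lower, against 8.12% and 8.43% of all genes tested. The model tested 46 and called 15 higher and 21 lower, against 25.4% and 25.6%. Their median log2 fold change was -0.26 in edgeR and -0.25 in the model. Of the 32 with at least 100 estimated reads in a group, 29 passed in the model, 13 higher and 16 lower. The share of all genes with that many estimated reads that the model called was not computed, so the 29 of 32 is no result about the pathway. Calls were common among well-counted genes in general, since edgeR, a different test at a different cut, called 3877 of the 5038 genes averaging 500 counts or more. 14 of the 68 were under 1 estimated read in both groups.

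Of the 11 genes of arachidonate release and handling in the model, 4 were called higher and 5 lower, against 25.4% and 25.6% of all genes. LPCAT3, which loads arachidonate into phospholipid, fell from 113.5 ± 5.94 to 30.6 ± 3.30 CPM (SD, n = 3 each), with a log2 fold change in edgeR of -1.89 ± 0.08 (SE, adjusted p = 1.65e-06). The calcium-independent phospholipase PLA2G6 fell by 1.14 ± 0.08 on the log2 scale (adjusted p = 1.99e-05). MBOAT7, which loads arachidonate into phosphatidylinositol, rose from 267.1 ± 12.1 to 423.0 ± 6.37 CPM (SD, n = 3 each), 0.66 ± 0.04 (SE, edgeR adjusted p = 6.88e-06). The acyl-CoA synthetases ACSL1 (1.02 ± 0.11, adjusted p = 0.000299) and ACSL4 (1.02 ± 0.28, adjusted p = 0.0398) rose. The monoacylglycerol lipase MGLL counted 313, 214 and 213 in control cells and 192, 55 and 61 after knockdown, and the model, which read 313 and 192 as 213 and 92, gave -1.57 (-1.83 to -1.33, adjusted p = 2.56e-20), while edgeR did not call it (adjusted p = 0.154). The lysosomal phospholipase PLA2G15 rose by 0.27 (0.09 to 0.48) in the model only.

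In the cyclooxygenase branch the inducible cyclooxygenase PTGS2 stayed at a low level beside PTGS1. Its control libraries counted 31, 38 and 56 and its knockdown libraries 80, 136 and 193, where 193 was read as 93 under an added 100. All 3 knockdown libraries were above all 3 control libraries. The estimate rose from 37.4 reads (29.8 to 45.8) to 102.1 (89.5 to 116.1), a log2 fold change of 1.45 (1.10 to 1.82, adjusted p = 1.01e-09), while edgeR did not call it (1.75 ± 0.56, SE, adjusted p = 0.0788). Per kilobase, PTGS2 was at 19.4 estimated reads in the knockdown against 1420 for PTGS1. The prostamide and prostaglandin F synthase PRXL2B fell by 1.19 ± 0.05 (edgeR adjusted p = 1.10e-06) and the carbonyl reductase CBR1 by 0.75 ± 0.06 (adjusted p = 3.56e-05), while AKR1C3, which makes prostaglandin F and its 11-epimer, rose by 0.35 ± 0.09 (adjusted p = 0.0260). The prostaglandin D synthase PTGDS held only values equal to an added number, and the prostacyclin synthase PTGIS was under 1 estimated read.

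In the lipoxygenase branch the microsomal glutathione transferases, the family of LTC4S, moved in opposite directions. MGST2, a microsomal glutathione transferase that can also make leukotriene C4, counted 725, 779 and 744 in control cells and 868, 944 and 871 after knockdown and rose by 0.29 ± 0.07 (SE, edgeR adjusted p = 0.0203). MGST3 fell by 0.34 ± 0.09 (adjusted p = 0.0420). COTL1, which binds 5-lipoxygenase and actin, fell from 532.8 ± 4.74 to 411.3 ± 8.22 CPM (SD, n = 3 each; -0.37 ± 0.03, SE, edgeR adjusted p = 1.91e-05). The lipoxygenases ALOX15, ALOX15B and ALOX12B were at most at 9.65 estimated reads in either group.

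Of the 3 transport genes tested, edgeR called 0 higher and 2 lower, and of the 4 breakdown genes 1 higher and 0 lower. Of the 13 receptor genes it called 1 higher and 1 lower, with 11 not passing, against 8.12% and 8.43% of all genes. In the model the counts were 0 and 3 of 3, 1 and 1 of 3, and 2 and 3 of 10, against 25.4% and 25.6%. The breakdown and receptor counts in the model are near those shares, so they are no result about these genes. ABCC1, which exports leukotriene C4, fell from 297.4 ± 4.75 to 197.1 ± 5.54 CPM (SD, n = 3 each; -0.59 ± 0.03, SE, edgeR adjusted p = 5.26e-06), and ABCC4, which exports prostaglandins, fell by 0.94 ± 0.07 (adjusted p = 3.49e-05). The transporter SLCO3A1 fell in the model only (-0.45, interval -0.68 to -0.23). SLCO2A1, the other listed transport gene, had few reads and was in neither test. Its estimate went the other way, from 1.04 reads (0.18 to 2.93) to 5.47 (3.14 to 9.06). When genes of any mean were modelled, the adjusted p of SLCO2A1 was 0.0142. HPGD, which inactivates prostaglandins, rose by 0.76 ± 0.12 (edgeR adjusted p = 0.00215), and the soluble epoxide hydrolase EPHX2 fell in the model only (-0.84, interval -1.05 to -0.62). Among receptors the prostaglandin E receptor gene PTGER3 rose from 30.7 ± 2.30 to 74.8 ± 6.16 CPM (SD, n = 3 each; 1.28 ± 0.08, SE, edgeR adjusted p = 1.15e-05), and the prostacyclin receptor gene PTGIR fell by 0.75 ± 0.19 (adjusted p = 0.0305). The leukotriene B4 receptor gene LTB4R was lower in the model only (-0.25, interval -0.45 to -0.06, adjusted p = 0.0430). That call was lost when genes of any mean were modelled (adjusted p = 0.0567). The thromboxane receptor gene TBXA2R, with 19.2 estimated reads in the control and 9.51 in the knockdown, was lower in the model (-1.01, interval -1.70 to -0.35, adjusted p = 0.00774), while edgeR gave an uncalled value of the opposite sign (1.73 ± 1.48, SE, adjusted p = 0.567). The largest called receptor change in the model was in PTGER4, another prostaglandin E receptor gene, named after its values were seen. It counted 110, 19 and 13 in control cells and 66, 66 and 70 after knockdown, and its estimate rose from 10.7 to 65.5 reads (2.61, interval 1.93 to 3.32, adjusted p = 6.50e-21), while edgeR did not call it (adjusted p = 0.919). Of the kinases that phosphorylate PLA2G4A protein, MAPK3 fell by 1.65 ± 0.05 (edgeR adjusted p = 3.54e-07) and MAPK14 rose by 0.37 ± 0.07 (adjusted p = 0.00539).

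**Figure D4:**
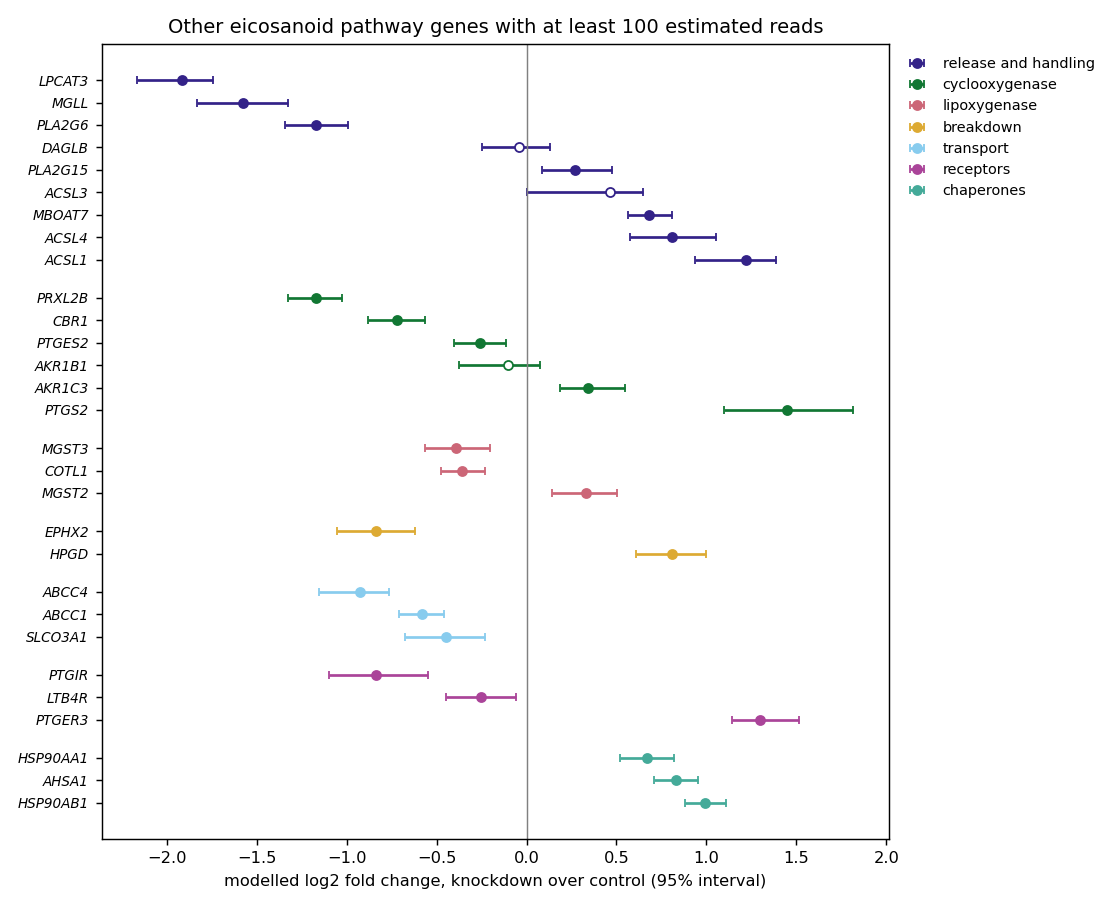
Modelled log2 fold change (knockdown over control, with 95% interval) of the 29 wider pathway genes outside the kinases with at least 100 estimated reads in a group, coloured by role; filled circles passed the adjusted threshold and open circles did not. Chaperone partners of PTGES3 all lie above 0 and the 3 transport genes drawn all lie below 0, while the other roles hold genes on both sides. The transport gene SLCO2A1 had too few reads to be drawn.

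The genes whose pattern over the 6 libraries was most like that of a member were sought in the 5038 genes averaging 500 counts or more, by the smallest root mean square difference of centred log2 CPM. With 2 groups this measure mostly matches the size of the change. For HPGDS the nearest were EIF2S1 (0.0130) and FCER1A (0.0338), the gene of the high-affinity IgE receptor alpha chain, which went from 40.2 ± 4.87 to 88.9 ± 3.60 CPM (SD, n = 3 each). For PTGES3 they were PLEK (0.0165), which encodes the platelet protein pleckstrin, and LAPTM4B (0.0175). For LTC4S they were CHD5 (0.0972) and GBGT1 (0.111), for PTGS1 RPL27 (0.0103) and PATL1 (0.0127), and for LTA4H GTF3A (0.0261) and CTBP2 (0.0384).

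LTC4S and HPGDS make products for which mast cells are known, which does not make them particular to mast cells. Of the 10 mast cell and basophil markers in the model (11 listed) 5 were called higher, 4 lower and 1 neither, against 25.4% higher and 25.6% lower of all genes. The summed level of the markers (CPM of estimated reads) ran from 977.4 to 1017 in control and from 771.4 to 776.8 in knockdown libraries, and CMA1, mast cell chymase, was under 1 estimated read in both groups. Most of that sum came from GATA2 (556.5 to 407.1 CPM) and HDC (288.9 to 196.0 CPM), while KIT, IL1RL1, FCER1A, CPA3 and CLC were the 5 called higher. The tryptase gene TPSAB1 fell by 2.73 ± 0.10 (SE, edgeR adjusted p = 7.63e-07), with reads it may share with its near-identical neighbour TPSB2, and KIT rose by 2.93 ± 0.13 (adjusted p = 1.88e-06). The 13 monocyte and granulocyte markers summed to 468.7 to 489.8 CPM in the control and 288.7 to 300.4 in the knockdown, with 2 higher and 4 lower of 7 in the model. The 2 called higher were FCGR1A (2.50) and LYZ (0.29, both modelled log2 fold changes). The 15 megakaryocyte and platelet markers summed to 2708 to 2839 and 1633 to 1706, with 3 higher and 6 lower of 11, and most of that sum came from ITGA2B (2024 to 1061 CPM). The 3 called higher were FLI1 (0.73), GP6 (0.54) and TUBB1 (0.49), by modelled log2 fold change. The 8 erythroid markers summed to 574.9 to 593.7 and 222.9 to 230.8, with 0 higher and 7 lower of 8 in the model and 0 and 4 in edgeR, among them KLF1 (-1.45 ± 0.06, SE, edgeR adjusted p = 9.64e-07), RHAG (-1.92 ± 0.07, adjusted p = 8.00e-07) and HBA2 (-2.31 ± 0.12, adjusted p = 3.87e-06). The part of these marker genes in the changes of LTC4S, HPGDS and PTGES3 was not tested, and in bulk RNA fewer cells of a type and less RNA per cell cannot be told apart.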

How the data were processed

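The values are raw counts of the 6 libraries in a single table that the authors deposited (unnormalized, per the file headers). HTSeq, STAR, fastp, FastQC, DESeq2 and R 4.3.3 appear without roles in the submitters' processing notes, as does the build GRCh38. No source used here gives the counting mode, strand or annotation release. Symbols were matched for 61803 of 61852 genes. Positions and exon lengths come from GENCODE release 29 (GRCh38), and promoter windows from RefSeq (GRCh38.p14).

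Counts were fitted with edgeR 4.0.16 (TMM, filterByExpr with a minimum count of 10, robust quasi-likelihood F-test, no block, Benjamini-Hochberg adjusted threshold of 0.05 over all genes tested). CPM were computed from the deposited counts with TMM-scaled totals. In the second analysis each value was a negative binomial read count plus 0, 1, 2, 10 or 100, equally likely, with a common dispersion of 0.00293 estimated from genes averaging 500 counts or more, a likelihood-ratio test and profile intervals of 95%. It was run on genes averaging 30 counts or more with a value outside the 5 numbers. Both were run on simulated data with 200 changed genes, drawn with the model's own dispersion and added numbers. Such data meet the assumptions of the model, so its behaviour where they fail was not tested. Far more genes were called in the real data than were changed in the simulated data. Replicates of a group differed by more than counting noise, but the added numbers (SD 38.9) also enter that check. Each was treated as a separate library because the labels call the replicates biological. DESeq2 1.42.0 was an alternative.

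The members, lists, tests and naming rule were chosen with earlier results of these data known. The rule named MELK, the 10 members, wider pathway genes past the model's threshold with at least 100 estimated reads, a set of their relatives, and the 2 genes most like each member averaging 500 counts or more. Marker genes were named from the marker lists after their values were seen, as were PTGER4 and SLCO2A1. A gene of the wider list that the rule took is not reported here.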

Additional observations from a re-analysis of the deposited data

How the results depend on the processing

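LTC4S, HPGDS and PTGES3 kept their direction and call in edgeR under relative log expression, without the filter, with at least 5 CPM required in 3 libraries, with a mean of 500 counts or more, DESeq2, the replicate block, the GC and length offsets and each library left out, and in the model under every setting tried. DESeq2 called 9576 genes in all (4813 higher, 4763 lower) against 4683 in edgeR (2297 and 2386), and 4 members in both. Leaving out 1 library gave 3591 to 3951 genes, 3 to 4 members and 17 to 19 wider genes in edgeR (23 with all 6), and 8210 to 8538 genes, 3 to 4 members and 33 to 37 wider genes in the model (9028, 3 and 36 with all 6). The edgeR fits that left out a library tested 40268 to 40434 genes. The model called 7443 genes and 32 wider genes with a dispersion of 0.01, and 7138 and 30 with 4 times the dispersion. Some model calls therefore rest on the dispersion used. Signs turned for LTA4H with the GC and length offsets (-0.15) and, in the model, for ALOX5AP without control replicate 2 (0.07), control replicate 3 (0.12) or knockdown replicate 2 (0.15), in a range of -0.32 to 0.15 with 1 library left out. The cause was not tested. MELK was called by edgeR with no filter (adjusted p = 0.00961) and with 5 CPM in 3 libraries (0.0204). Same-numbered libraries did not deviate together (correlations 0.10, -0.01 and -0.08), and 2 of the 6 correlated best with their own number. With the replicate block 4182 genes and the same number of members, 4, passed in edgeR. The model with no minimum mean was chosen after the values were seen. Few reads limit 4 members: the modelled interval for ALOX5 runs from -1.59 to 0.95 and that for PLA2G4A from -1.53 to 0.03.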
